A study of Mus musculus with 8 samples.

Results

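The 10 genes described here carry the output of the Hippo pathway or answer to it. They are the coactivator genes Yap1 and Wwtr1 (the protein of Wwtr1 is known as TAZ), the DNA-binding factor genes Tead1, Tead2 and Tead3, the kinase gene Lats2, the scaffold gene Amotl2, and the YAP target genes Ankrd1, Dock5 and Axl. Members were taken by gene symbol, with every probe set annotated to one of these symbols alone, which gave 23 of 45037 probe sets and 10 of 18193 named genes. A probe set is the group of array probes that measures one transcript.

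In the Hippo pathway the kinases MST1 and MST2 activate LATS1 and LATS2, which phosphorylate YAP and TAZ. Phosphorylated YAP and TAZ are bound by proteins of the Ywha genes, stay in the cytoplasm and are degraded. Without that phosphorylation they enter the nucleus, where TEAD factors bring them to DNA. Several targets feed back on the pathway, LATS2 and the angiomotins among them, and in the developing kidney the pathway acts in nephron progenitors and in the branching ureteric tree.

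LB-22 is an immortalized mouse line of embryonic kidney, and both groups are this 1 line. The control group (4 arrays) received a scrambled siRNA and the Wt1 siRNA group (4 arrays) an siRNA to Wt1, which encodes a zinc finger transcription factor of kidney progenitors and podocytes. In both groups 25 pmol of siRNA was applied for 6 h in a lipid reagent and RNA was taken at 48 h. Both had been expanded at 33 °C with 10 U/ml interferon gamma, together with prostaglandin, basic FGF, hydrocortisone, thyroid hormone, insulin and transferrin, and were held at 37 °C with no interferon from transfection on. Nothing in the labels states that replicates are separate cultures. The p-values therefore reflect the spread among these 8 arrays, which may be technical.

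Wt1 signal in the siRNA group was 20.5% of control, a log2 difference of -2.28 ± 0.11 (SE, n = 4 and 4; exact two-sided permutation p = 0.0286, the smallest possible here). Of the 9 kidney mesenchyme markers measured, Wt1, Osr1, Six2, Eya1 and Hoxa11 exceeded the highest signal of 27 bacterial control probe sets (227.2) on every array, while Cited1, Sall1, Gdnf and Hoxd11 did not do so. All 5 epithelial markers passed it, with a summed signal of 21542.6 to 23488.2 in controls and 19346.6 to 20483.0 after Wt1 siRNA, and among them Epcam was at 23.3% of control and Krt8 at 146%. The sums also moved apart without overlap for 3 podocyte markers (2766.9 to 5861.5, against 1306.3 to 1837.1; Synpo and Podxl above the bacterial controls), 5 of smooth and skeletal muscle (21269.5 to 23739.1, against 14781.8 to 18019.2; Acta2 alone above), 5 of endothelium (2051.7 to 2717.8, against 1593.3 to 1839.5; Kdr alone above) and 5 of kidney stroma (1370.8 to 1696.8, against 1074.4 to 1240.2; Tcf21 and Meis1 above). The sums of 5 leukocyte markers (3241.2 to 3664.9 and 3435.5 to 3851.8) and 4 neural markers overlapped. Of the leukocyte markers Cd68 was at 198%, Csf1r at 59.2% and Adgre1, too dim to be tested, at 52.9% of control. Ptprc and Cd3e overlapped between the groups. Taken singly, Synpo, Podxl, Acta2 and Kdr did not overlap between the groups, and the other podocyte, muscle and endothelial markers did. Nphs1 was at 118% of control. Each stroma marker overlapped singly, and among them Foxd1, never above the bacterial controls, was at 158% and the others below control. Of the mesenchyme markers other than Wt1, Osr1 alone did not overlap, at 168% of control. The part of these markers in the results was not tested. The arrays fell into 2 classes by median signal that crossed the groups. Control siRNA array 3 and Wt1 siRNA arrays 1, 2 and 3 had medians of 279.1 to 299.1, and the other 4 had 336.1 to 346.1. The lower class also had higher 3′ to 5′ ratios of the Gapdh probe sets (0.855 to 0.913, against 0.793 to 0.847). What the classes are is not stated in the labels, and within-class differences are given with no test, since each class holds 1 array of one group.

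Tead2 and Axl rose after Wt1 siRNA and Dock5, Lats2, Wwtr1 and Amotl2 fell, whereas Yap1, Tead1 and Tead3 did not pass the test. Genes were tested on their brightest probe set among the brighter 9096 genes, with a threshold of 0.05 on the limma adjusted p. Of the 9 members tested, 2 were higher and 4 lower. Over all tested genes 37.3% were called, 18.8% as higher and 18.5% as lower. Ankrd1 lay under the signal filter and was not tested as a gene. In 6 of the 9 genes the arrays of the groups did not overlap, against 36.3% of all tested genes. The members were chosen with earlier results of these data known. Neither these counts nor those over probe sets can therefore show an excess over all features. The median log2 difference was -0.12 over the 9 members and 0.02 over all tested genes. Centring each array on its median moved the latter to 0.12 and left 2 members higher and 1 lower. With it 26.0% of all genes were called (17.4% higher and 8.63% lower). The calls for Lats2, Wwtr1 and Amotl2 were lost with this centring. Their SE also grew with it, from 0.1139, 0.0767 and 0.0698 to 0.1572, 0.149 and 0.1395. Quantile normalization, another rescaling of the arrays, kept the calls of all 6 genes, 2 higher and 4 lower.

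**Figure D1:**
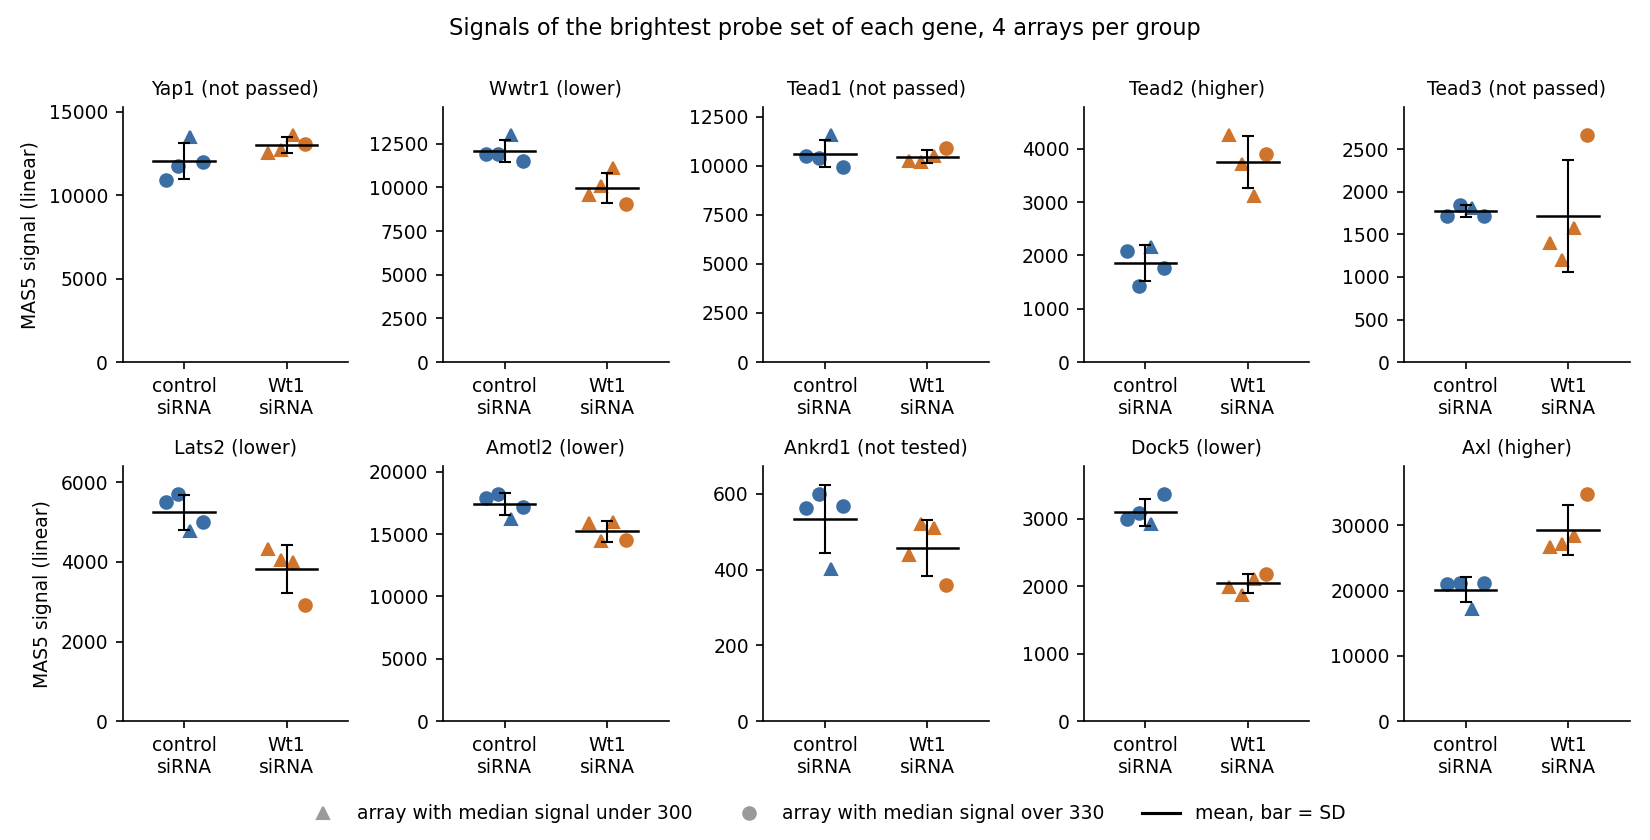
Deposited MAS5 signal on each array (linear axis from 0) for the brightest probe set of the 10 genes, with 4 control siRNA and 4 Wt1 siRNA arrays per panel. Marks are single arrays (triangles: lower class of median signal, circles: higher class), and lines with bars are means and SD. Tead2 and Axl were higher on every Wt1 siRNA array, and Dock5 and Lats2 were lower on every one.

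The TEAD recognition sequence GGAATG was looked for, on both strands, in the 250 bases before each RefSeq transcription start (GRCm38.p6). It is shown because both the TEAD genes and targets of TEAD are members. Of the 10 genes 8 had an entry (none for Tead1 and Dock5). The letters occurred in 6 of these 8 genes, at 9 distinct places, and in 14.4% of the 27025 genes of the table (12.6% of its 32851 windows). Each is shown with its flanks in 30 bases, 5′ to 3′ on the strand that reads GGAATG, with those 6 letters in capitals, and each lies before the start of its window. The plus strand windows of Tead3 lie downstream of another listed Tead3 start, and so within the span of that transcript.
Yap1, chr9:8004720-8004749, minus strand: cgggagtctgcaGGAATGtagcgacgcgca
Wwtr1, chr3:57576029-57576058, minus strand: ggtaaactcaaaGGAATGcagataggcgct
Tead3, chr17:28350697-28350726, plus strand: agggggatggccGGAATGtacggaatgagc
Tead3, chr17:28350706-28350735, plus strand: gccggaatgtacGGAATGagcccggccgga
Tead3, chr17:28350970-28350999, minus strand: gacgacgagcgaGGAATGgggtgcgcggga
Amotl2, chr9:102717727-102717756, minus strand: gctgctatgccaGGAATGtgagagtttcag
Ankrd1, chr19:36120037-36120066, minus strand: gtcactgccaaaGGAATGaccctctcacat
Ankrd1, chr19:36119950-36119979, minus strand: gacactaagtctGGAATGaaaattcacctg
Axl, chr7:25788949-25788978, minus strand: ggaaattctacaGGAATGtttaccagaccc
Genes that hold the letters include Axl, which rose, Wwtr1 and Amotl2, which fell, and Yap1 and Tead3, which did not pass, so the letters went with no single direction. The match lay 233 bases before the start of Axl, 210 and 123 bases before that of Ankrd1 and 65 bases before that of Amotl2. The first pair of Tead3 windows overlap, since their matches are neighbours. A match is a description of letters and no measure of binding.

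The windows of Tead2 and Axl, the members that rose, are given in full, with GGAATG in capitals. Neither holds the WT1 letters GCGTGGG or the AP-1 letters TGANTCA on either strand.
Tead2, chr7:45215542-45215791, plus strand: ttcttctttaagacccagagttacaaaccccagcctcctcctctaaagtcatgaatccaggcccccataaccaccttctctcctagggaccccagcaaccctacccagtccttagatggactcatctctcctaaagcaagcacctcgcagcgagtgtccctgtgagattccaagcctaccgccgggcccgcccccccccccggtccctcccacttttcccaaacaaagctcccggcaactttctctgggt
Axl, chr7:25788734-25788983, minus strand: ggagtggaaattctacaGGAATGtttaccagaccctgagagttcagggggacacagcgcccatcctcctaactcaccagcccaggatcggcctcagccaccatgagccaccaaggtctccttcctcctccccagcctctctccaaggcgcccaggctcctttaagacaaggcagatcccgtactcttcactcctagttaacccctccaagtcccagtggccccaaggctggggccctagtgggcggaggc
GCGTGGG occurred in 1 of the 8 genes, Wwtr1, and in 4.9% of all genes, and TGANTCA in none of the 8 and in 7.8% of all genes. No motif contains another.

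Of the coactivator genes, Wwtr1 fell and Yap1 did not pass the test, and the difference between them was not tested. Yap1, measured by 1448363_at, had signals of 10926.1, 11766.4, 13497.8 and 11985.5 on the control arrays and 12551.1, 12737.5, 13634.6 and 13057.0 on those with Wt1 siRNA, each in the order of the replicates 1 to 4. Control array 3 lay among the Wt1 siRNA arrays and the other controls below them all. The log2 difference was 0.11 ± 0.07 (95% interval -0.05 to 0.27), or 108% of control, and did not pass (adjusted p = 0.251). The interval still allows a rise of 1.21-fold. Its other probe set, 1416487_a_at, read 968.9 on control array 3 and 1570.0 to 1839.2 on the other 7 arrays. Its difference of 0.16 (adjusted p = 0.574 over probe sets) turned to -0.06 without control siRNA array 3.

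Wwtr1, measured by 1417818_at, read 11931.8, 11890.2, 13018.3 and 11496.3 in controls and 9548.8, 10101.8, 11079.0 and 9069.4 after Wt1 siRNA. Every Wt1 siRNA array lay below every control array. The signal fell to 82.2% of control, a log2 difference of -0.28 ± 0.08 (adjusted p = 0.0107). It was -0.35 within the class of lower median signal and -0.38 within the other class. With arrays centred on their medians it was -0.17 and did not pass (adjusted p = 0.408).

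The other Wwtr1 probe sets split by array. On 1417817_a_at the controls read 5187.2, 5240.3, 2927.0 and 3871.2 and the Wt1 siRNA arrays 3288.6, 3085.9, 3246.7 and 3013.0. Control array 3 was thus the lowest of all 8 and the other controls the highest. The difference of -0.41 did not pass (adjusted p = 0.0901) and was 0.13 within the class of control array 3 and -0.65 within the other. Likewise 1437155_a_at, at -0.39 (adjusted p = 0.0792), was at 0.03 and -0.56 within the classes. Without control siRNA array 3 the differences were -0.58 and -0.53 and passed (adjusted p = 0.00297 and 0.00746).

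Among the TEAD genes, which encode factors that share one type of DNA-binding domain and differ in the tissues that use them, Tead2 alone passed. Tead2 is known for its use in early embryos and progenitor cells. Its signals were 2080.8, 1426.2, 2167.5 and 1765.2 in controls and 4266.9, 3714.3, 3114.4 and 3905.4 after Wt1 siRNA. The lowest Wt1 siRNA array stood well above the highest control. The means were 1859.9 ± 336.9 and 3750.2 ± 481.9 (SD, n = 4 each). Tead2 thus rose 2.03-fold (95% interval 1.66 to 2.48), a log2 difference of 1.02 ± 0.14 (adjusted p = 7.64e-05). Within the array classes it was 0.76 and 1.17, and it passed under every alternative in which it was tested. It has 1 probe set, so no second measurement stands beside it.

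Tead1, with 1429556_at, read 10507.5, 10386.5, 11582.1 and 9953.6 in controls and 10252.0, 10195.2, 10505.0 and 10902.1 after Wt1 siRNA. The groups overlapped on most of their range. The log2 difference was -0.02 ± 0.07 (95% interval -0.17 to 0.13; adjusted p = 0.862), and its sign turned under median centring (0.09). The dimmer 1423434_at was at -0.22 (adjusted p = 0.270). Tead3 read 1716.2, 1851.8, 1815.1 and 1713.4 in controls and 1403.3, 1201.1, 1578.3 and 2673.7 after Wt1 siRNA. Wt1 siRNA arrays 1 to 3 lay below all controls and array 4 above them. Over all arrays the difference was -0.12 ± 0.19 (95% interval -0.53 to 0.29; adjusted p = 0.654). Without Wt1 siRNA array 4 it was -0.36 and passed (adjusted p = 0.0261). With the array class as a block it was 0.11.

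The fourth family member, Tead4, was too dim for the gene test. Its probe set 1426337_a_at read 515.9, 333.2, 239.0 and 363.6 in controls and 432.4, 572.5, 600.9 and 858.6 after Wt1 siRNA. Wt1 siRNA array 1 fell within the control range and the others above it. The difference of 0.77 did not pass over probe sets (adjusted p = 0.0588). The other Tead4 probe set, 1460683_at, was at -0.59 and untested, with signals of 50.6 to 187.2, under the highest bacterial control.

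Lats2 encodes a kinase that phosphorylates YAP and TAZ and is itself a target of theirs. On 1439441_x_at the controls read 5501.5, 5712.5, 4765.4 and 5005.5 and the Wt1 siRNA arrays 4313.9, 4054.6, 3988.7 and 2925.5. No array of one group reached the other, and Wt1 siRNA array 4 was the lowest. Lats2 fell to 72.2% of control, a log2 difference of -0.47 ± 0.11 (adjusted p = 0.00574). The difference was -0.21 in the class of lower median signal and -0.88 in the other. It did not pass under median centring (-0.36, adjusted p = 0.0841) or with the mean over probe sets of each gene (-0.36, adjusted p = 0.197).

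Lats2 has 6 probe sets, of which 4 were bright enough to be tested. Besides 1439441_x_at, 1437101_at passed as lower, with control signals of 3794.9, 4616.9, 3637.3 and 4721.0 and Wt1 siRNA signals of 2999.3, 3241.0, 2875.5 and 2280.9. These again did not overlap, and the level was 67.9% of control (-0.56; adjusted p = 0.0075). The remaining tested probe sets were at -0.33 (1419678_at, adjusted p = 0.205) and -0.48 (1425420_s_at, adjusted p = 0.114). The untested 1419679_at and 1426156_at ranged from 84.1 to 484.2 and from 15.8 to 199.8 over the 8 arrays, so the latter never exceeded the bacterial controls. The paralog Lats1 had control signals of 4965.4 to 5785.5 and Wt1 siRNA signals of 4381.5 to 4932.8. It was lower at -0.23 ± 0.08 (adjusted p = 0.0287), a call lost under median centring (adjusted p = 0.549), when its probe sets were averaged (0.571), with the array class as a block (0.0909) and when any 1 of control arrays 1, 2 and 4 or Wt1 siRNA arrays 1, 2 and 3 was left out (up to 0.0906).

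Amotl2, a scaffold that binds YAP at junctions and is a YAP target, had signals of 17901.1, 18241.2, 16246.3 and 17170.5 in controls and 15921.9, 14459.8, 15955.4 and 14529.1 after Wt1 siRNA. The groups were apart by a narrow margin, between control array 3 and Wt1 siRNA array 3. Amotl2 fell to 87.5% of control, -0.19 ± 0.07 on the log2 scale (adjusted p = 0.0438). The call was lost over probe sets (adjusted p = 0.0686) and under median centring (-0.08, adjusted p = 0.685). Leaving out any 1 array other than control siRNA array 3 also ended it (adjusted p = 0.0512 to 0.127). So did no filter (adjusted p = 0.0815), no intensity trend (adjusted p = 0.0731) and the array class as a block (adjusted p = 0.0762). The paralogs Amot and Amotl1, the angiomotins that also hold YAP outside the nucleus, were at -0.31 ± 0.11 (adjusted p = 0.033) and -0.29 ± 0.08 (adjusted p = 0.0105). Neither passed with median centring (adjusted p = 0.345 and 0.378) or when each gene's probe sets were averaged (-0.17, adjusted p = 0.411, and -0.0752, adjusted p = 0.692), and Amot was also lost without control array 2 or 4 or Wt1 siRNA array 3 or 4 (up to 0.0903).

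Of the targets outside the feedback loop, Dock5 fell and Axl rose. Dock5 encodes an exchange factor that activates the GTPase Rac. On 1430291_at it read 2995.6, 3089.0, 2921.7 and 3371.3 in controls and 1993.9, 1872.6, 2113.9 and 2187.0 after Wt1 siRNA, with a clear gap between the groups. It fell to 66.0% of control (95% interval of the ratio 0.578 to 0.753), a log2 difference of -0.60 ± 0.09 (adjusted p = 0.000175). The difference was -0.55 and -0.53 within the array classes, and it passed under every alternative in which it was tested.

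The other Dock5 probe sets lay in the same direction. On 1425747_at controls read 1486.4, 1635.3, 1043.9 and 1487.6 and Wt1 siRNA arrays 781.2, 737.6, 933.4 and 1010.1, and the difference was -0.70 (adjusted p = 0.0102). Control array 3 was closest to the Wt1 siRNA arrays but above them. On 1439129_at that array, at 729.6, lay inside the Wt1 siRNA range of 514.0 to 913.4, while the other controls read 1054.5 to 1412.8. There the difference of -0.67 did not pass (adjusted p = 0.0631). It did so without control siRNA array 3 (-0.87, adjusted p = 0.00962) or Wt1 siRNA array 4 (-0.79, adjusted p = 0.0378).

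Ankrd1, which encodes a nuclear ankyrin repeat protein, is a standard readout of YAP activity and has 2 GGAATG matches in its window, gave no call. On 1420992_at controls read 562.9, 600.7, 402.4 and 569.5 and Wt1 siRNA arrays 438.4, 521.9, 509.6 and 360.2. All signals exceeded the bacterial controls but lay under the lowest mean signal of the gene test, 664. Control array 3 fell within the Wt1 siRNA range and the other controls above it. Over probe sets the difference was -0.22 (adjusted p = 0.465), and on 1420991_at, with signals of 314.8 to 639.9 over the 8 arrays, it was -0.15 (adjusted p = 0.718).

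Axl encodes a receptor tyrosine kinase of the TAM family, whose ligand is GAS6. On 1423586_at it read 21048.7, 21101.4, 17252.3 and 21143.5 in controls and 26737.5, 27159.5, 28315.9 and 34857.4 after Wt1 siRNA. All Wt1 siRNA arrays lay above all controls, with array 4 the highest and control array 3 the lowest. The means were 20136.5 ± 1923.2 and 29267.6 ± 3785.8 (SD, n = 4 each). Axl rose 1.45-fold (95% interval 1.25 to 1.68), a log2 difference of 0.54 ± 0.10 (adjusted p = 9e-04). Within the array classes it was 0.67 and 0.72. Its other probe set, 1438621_x_at, ranged from 110.2 to 207.5, under the highest bacterial control, and the mean over both was at 0.24 and did not pass (adjusted p = 0.221). Of the TAM list 1 of 3 tested genes, Axl itself, rose, where 18.8% of all tested genes were higher. Gas6 was at 0.21 ± 0.10 (adjusted p = 0.115) and Pros1, encoding protein S, at 0.11 ± 0.09 (adjusted p = 0.349), while Tyro3 and Mertk were too dim to be tested.

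Over single probe sets, 20 of the 23 were among the brighter 22518 that were tested. Of these 2 were called higher and 5 lower, or 35.0%, where 23.1% of all tested probe sets were called (10.8% higher and 12.3% lower). In 9 of the 20 the groups did not overlap, against 27.0% of all. The differences were negative in 19 of the 23, which include 3 untested probe sets and 6 of Lats2 alone. No share of negative differences was counted over all probe sets. The median difference was -0.25 over the 20 tested and -0.01 over all tested probe sets. Leaving out control siRNA array 3 raised the count of calls, to 2 higher and 10 lower. In that setting 25.6% of all probe sets were called (11.9% higher and 13.7% lower). That array was the lowest control in 15 of the 23 probe sets and in 35.4% of the brighter and 37.2% of the dimmer probe sets of the whole array. Its part in the calls beyond these counts was not tested.

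**Figure D2:**
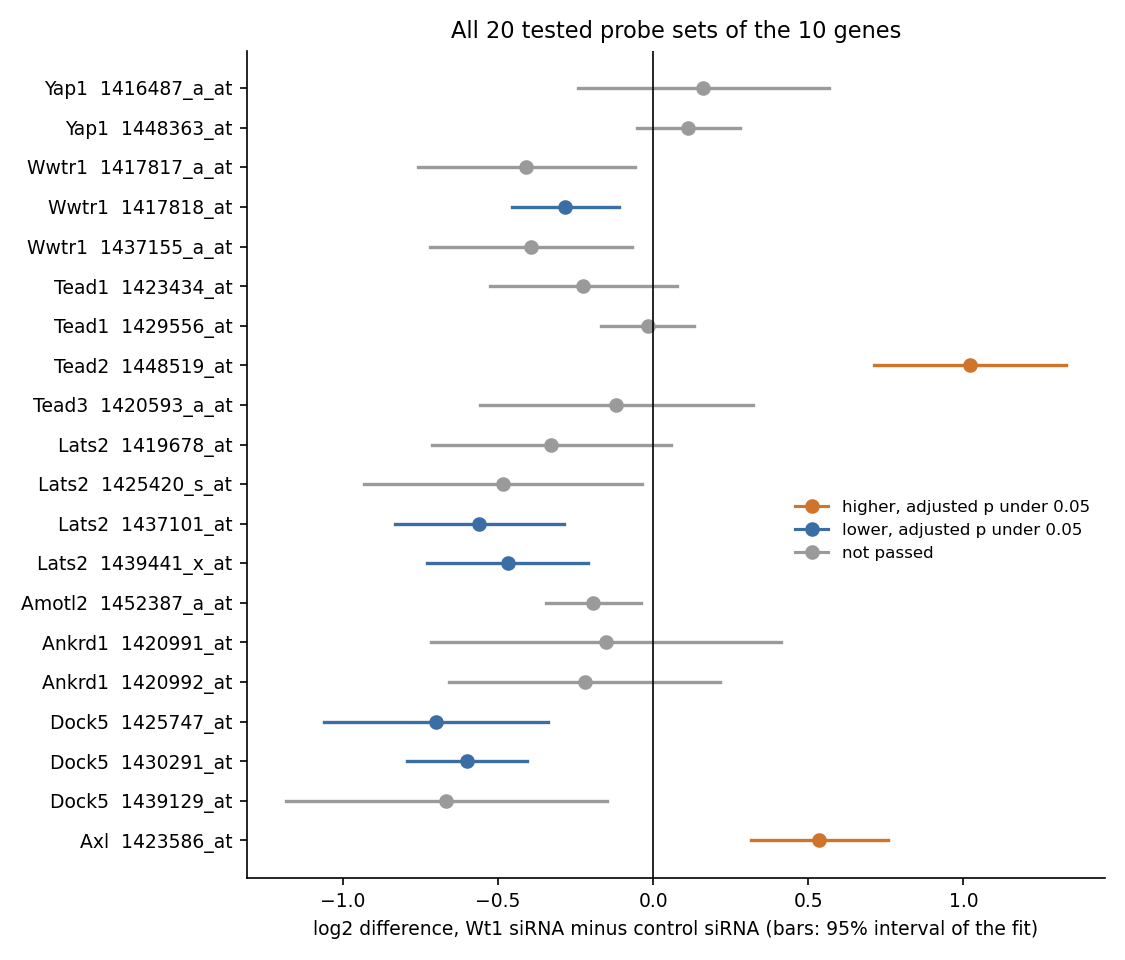
Log2 difference, Wt1 siRNA minus control siRNA, of the 20 tested probe sets with the 95% interval of the fit over all probe sets. The probe sets of Tead2 and Axl were called higher, and those called lower belong to Wwtr1 (1), Lats2 (2) and Dock5 (2).

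**Figure D3:**
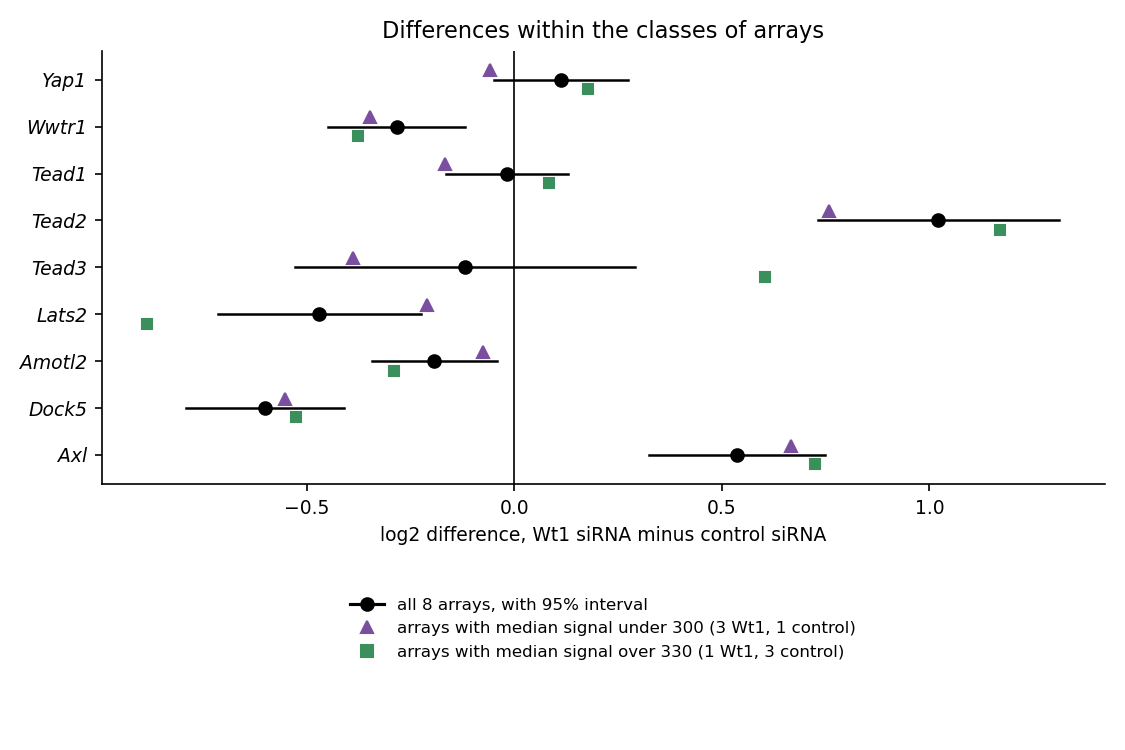
Log2 differences of the 9 tested genes over all 8 arrays (circles, with 95% intervals) and within each class of arrays (triangles: lower median signal, 1 control and 3 Wt1 siRNA arrays; squares: higher median signal, 3 control and 1 Wt1 siRNA array). Tead2 and Axl were above 0 and Dock5, Wwtr1, Lats2 and Amotl2 below it in both classes, whereas Tead3 was at -0.39 in the lower class and 0.60 in the other.

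The lists below, like the members, were chosen with earlier results of these data known, so their counts cannot show an excess either. Around the members, the kinase cassette list (21 genes, Lats2 among them) had 16 tested genes. Of these 4 rose, 3 fell and 9 did not pass, where 18.8% of all tested genes were higher and 18.5% lower. The median log2 difference of the list was -0.01, against 0.02 over all tested genes. Frmd6, a FERM protein that acts upstream of the kinases, was highest, with signals 1.72-fold the control level (0.78 ± 0.12; adjusted p = 0.000259). Sav1, the scaffold of the MST kinases, rose by 0.37 ± 0.07 (adjusted p = 0.00126), and Mob1b, a cofactor of LATS, by 0.52 ± 0.10 (adjusted p = 0.00136). Averaging the Mob1b probe sets ended its call (0.01, adjusted p = 0.954). Wwc2 was lower (-0.41 ± 0.11; adjusted p = 0.0133), which median centring (adjusted p = 0.169) and averaging its probe sets (0.141) ended. Under median centring 5 genes of the list were higher and 0 lower (17.4% and 8.63% of all genes).

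Of 14 tested genes of junctions and polarity upstream of the kinases, 2 rose, 5 fell and 7 did not pass. The median of the list was -0.10, and of all tested genes 18.8% were higher and 18.5% lower. Lin7c, a polarity adaptor, fell to 37.5% of control (-1.42 ± 0.11; adjusted p = 7e-07), and 3 of its 4 probe sets were called lower. Crb3, an apical membrane protein, fell to 51.7% (-0.95 ± 0.17; adjusted p = 0.000788), while its probe set 1455115_a_at was at 0.0033 (adjusted p = 0.993). The 3 angiomotin genes make up the other falls. The rises were Pard3 (0.22 ± 0.08; adjusted p = 0.0354) and Ctnna1 (0.24 ± 0.08; adjusted p = 0.033). Both calls were lost with median centring (adjusted p = 0.0941 and 0.059) and when each gene's probe sets were averaged (0.605 and 0.798). Of the 8 fits with 1 array left out, 6 ended the call of Pard3 and 7 that of Ctnna1. With median centring 0 were higher and 2 lower (17.4% and 8.63% of all genes). With the array class as a block these were 0 and 4 (17.6% and 21.2% of all genes).

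Among YAP, TAZ, the TEADs, their VGLL partners and the Ywha genes, 5 of 14 tested genes rose, 2 fell and 7 did not pass. The median was 0.12, and of all tested genes 18.8% were higher and 18.5% lower. Apart from Tead2, the rises were Ywha genes, whose proteins bind phosphorylated YAP and TAZ. Ywhag rose by 0.53 ± 0.10 (adjusted p = 0.00116; 0.93 as the mean over its probe sets), Ywhah by 0.39 ± 0.07 (adjusted p = 0.00105) and Ywhab by 0.36 ± 0.07 (adjusted p = 0.00166). For Ywhab 5 of 6 probe sets were called higher and 1438708_x_at lower (-0.79; adjusted p = 0.000151). Vgll3, a TEAD cofactor, fell by 0.36 on the log2 scale (adjusted p = 0.00199). Its call was lost with median centring (adjusted p = 0.197) and when probe sets of the multi-transcript kinds (_s_at, _x_at) were dropped (adjusted p = 0.252). Median centring gave 4 higher and 0 lower in this list (17.4% and 8.63% of all genes).

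Of the 22 YAP/TAZ targets, 18 were tested, and 3 rose, 8 fell and 7 did not pass, with a median of -0.15. Among all tested genes 18.8% were higher and 18.5% lower. This list holds Axl, Dock5, Lats2 and Amotl2. Ccn2, encoding connective tissue growth factor, fell furthest, by 1.07 on the log2 scale (SE 0.10; adjusted p = 2.9e-06). Ccdc80, an extracellular matrix protein gene, was at -0.69 ± 0.13 (adjusted p = 0.00131), and the mean over its probe sets, at -1.04, did not pass (adjusted p = 0.0526). Igfbp3, which encodes an IGF binding protein, rose 2.49-fold (1.32 ± 0.19; adjusted p = 0.00016), and F3, tissue factor, rose by 0.38 ± 0.10 (adjusted p = 0.0106). Ccn1, the close relative of Ccn2, was at -0.10 ± 0.09 (adjusted p = 0.358) and was chosen for mention after its values were seen. The split of the list changed with the processing. It was 4 higher and 3 lower after median centring (17.4% and 8.63% of all genes), and 4 higher and 7 lower after quantile normalization. With the array class as a block it was 3 higher and 6 lower (17.6% and 21.2% of all genes). Over all tested genes, quantile normalization gave slightly more calls than the main fit in each direction. Whether the list moved further than all genes was not tested.

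**Figure D4:**
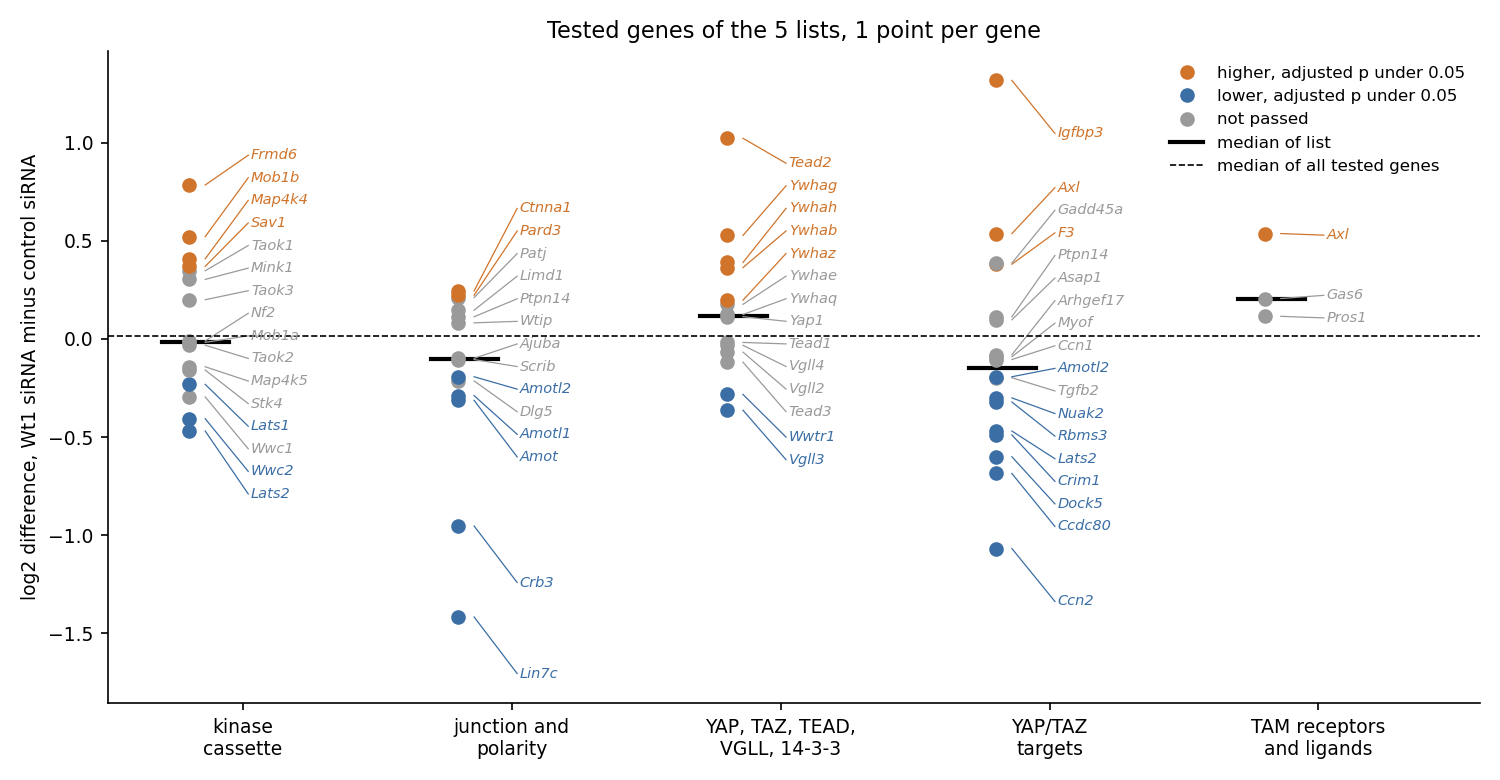
Log2 difference, Wt1 siRNA minus control siRNA, of each tested gene in the pathway lists, coloured by call (orange higher, blue lower, grey not passed), with the list's median as a bar and the dashed line at the median of all tested genes (0.02). The extremes are Igfbp3 and Tead2 above, and Lin7c, Ccn2 and Crb3 below. After median centring the junction list had 2 calls, both lower, and the target list 7, where 26.0% of all genes were called.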

How the data were processed

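Total RNA of 8 samples was measured on Affymetrix mouse expression arrays, 1 array per sample. The deposited table gives each probe set an intensity on a linear scale. MAS5 computed it, per the submitters' processing notes, in a version not given in the sources used here. Their mean after trimming 2% at each end was equal on all arrays, so a common scaling had been applied. Detection calls were not used here. Precision is limited by the number of arrays. Probe sets were named from the platform annotation, with symbols updated through Entrez gene IDs (34741 of 34945 with 1 symbol); 932 with several symbols and 9160 unnamed ones were not named, among them 1 that pairs a member with a second symbol.

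Values were log2 transformed and tested with limma (3.58.1, R 4.3.3; lmFit, eBayes with trend, two-sided, Benjamini-Hochberg adjustment) over all genes or all probe sets in the brighter part (a share of 0.5; 64 array controls left out). The procedure was tested on simulated data. These had independent noise and no array classes, so that test does not cover the classes. The lowest mean signal tested was 664 for genes and 291 for probe sets. Adjusted p-values are from the gene fit unless said to be over probe sets or given with a probe set that is not the gene's brightest. Errors after a log2 difference are SE and after a signal SD. A percent or fold is a ratio of geometric means. Members and lists were chosen with earlier results of these data known. Named are Wt1, all members, their paralogs and, of each list, up to 6 called genes with the largest difference, not all of which are discussed. The alternatives include those given with their effects at the end. Also run were quantile normalization, 16 or 64 added before log2, eBayes without trend, robust eBayes, and dropping _s_at and _x_at probe sets. The array class and the joint removal of control siRNA 3 and Wt1 siRNA 4 were chosen after seeing the data. Each of these arrays is the lone array of its group in a class. Promoter sequences are RefSeq's (GRCm38.p6). No genome build is stated for the array values. Same-numbered arrays did not deviate together (correlations of deviations from group means -0.062 to 0.082).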

Additional observations from a re-analysis of the deposited data

Results flagged for a closer look

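In 3 of the 46 groups of 4 arrays checked over the 23 probe sets, 1 array lay far from the other 3 by Dixon's test, where chance gives about 1 in 20. It was control siRNA array 3 each time, and it was the lowest. Its signal was 968.9 for Yap1 on 1416487_a_at, 402.4 for Ankrd1 on 1420992_at and 17252.3 for Axl on 1423586_at. Without that array Yap1 on 1416487_a_at was at -0.06, and Axl still passed.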

How the results depend on the processing

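Tead2, Dock5 and Axl kept their calls when any 1 array was left out (adjusted p up to 0.000407, 0.00114 and 0.00269), as did Lats2 (up to 0.0203) and Wwtr1 (up to 0.0366), each on the gene fit. On the fit over probe sets, the Wwtr1 probe set 1417818_at was lost without Wt1 siRNA array 1 (adjusted p = 0.0676) or 2 (0.0508). It was also lost with no intensity trend (adjusted p = 0.0612).

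Of the member genes, 3 were called with median centring and 5 to 6 with an array left out. Of the member probe sets, 4 were called with median centring or at an adjusted p under 0.01, and 12 with array weights or without both lone arrays. With an array left out, 6 to 12 were called. The calls over all 22518 tested probe sets, 5194 in the main fit, moved in the same directions. They were fewer with median centring or at 0.01, and more with array weights or without both lone arrays. Whether the members moved further than all probe sets was not tested. Over all features, 2185 genes and 2720 probe sets passed 0.01, 1870 genes passed 0.05 with the stricter filter (the brighter 0.25), and leaving out an array gave 2798 to 3464 genes and 3772 to 5757 probe sets.

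Over all 9096 tested genes the calls were 3395 in the main fit, 2369 with median centring and 2185 at 0.01. They were also fewer than in the main fit with the mean over probe sets. Whether the lists moved further than all genes was not tested. The kinase list had 3 calls with the mean over probe sets, 4 at 0.01 and 5 to 7 with an array left out. The junction and polarity list had 2 with median centring, the mean over probe sets or 0.01, 4 with no filter, the stricter filter or with the array class as a block, and 3 to 7 with an array left out. The TEAD and Ywha list had 4 with median centring and 6 to 7 with an array left out. The target list had 7 with median centring or at 0.01, 6 with the stricter filter and 8 to 10 with an array left out. The TAM list had 2 with array weights or without both lone arrays, 0 with the mean over probe sets (limma) and 1 to 2 with an array left out.

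Signs turned for Tead1 on 1429556_at (0.0903 with median centring, 0.0059 with array weights, 0.0052 without both lone arrays, and -0.0478 to 0.0251 with an array left out), for Tead3 (0.11 with the array class as a block, and -0.3557 to 0.0291 with an array left out), for Yap1 on 1416487_a_at (-0.06 without both lone arrays, and -0.0594 to 0.2488 with an array left out) and for Ankrd1 on 1420991_at (0.11 with the array class as a block). The turned values did not pass. The cause was not tested.

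The replicate number as a block gave 3414 genes and 4608 probe sets, 5 member genes and 7 member probe sets, and lists of 9, 5, 6, 10 and 1 calls in the order above. Amotl2 was not called with it (adjusted p = 0.0688). Of the 4 control arrays, 1 (array 4) correlated best with the Wt1 siRNA array of its own number. Dim signals limit Ankrd1, Tead4 and the untested Lats2 and Axl probe sets. No result here was measured by a second method.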
